A study of Mus musculus with 2 samples.

Results

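Levels of 8 genes of angiopoietin, Tie and apelin signalling were described in the lung of newborn mice: Angpt1, Angpt2, Angpt4, Tek, Tie1, Ptprb, Apln and Aplnr. They were taken by symbol, and all 8 were found among the 43346 mouse genes of the deposited gene tables. The data are total RNA libraries of B6NCrl lung collected on postnatal day 0, 1 from pup 1 and 1 from pup 3 of the same pregnancy, each holding RNA of both lungs of that pup. Both libraries carry the same donor identifier in the labels, the pups' sex is given as not collected, and no treatment or genetic change is named. The libraries form 1 group, so no condition could be compared, and each SD below is the spread between these 2 libraries, which may be technical in part. Levels are in TPM, a share of the library's transcripts after correction for length.

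Angiopoietins are secreted ligands of Tie2, the receptor tyrosine kinase encoded by Tek, on endothelial cells. Angpt1, made largely by cells around the vessels, activates Tie2 and stabilises vessels. Angpt2, made by endothelial cells, competes with it in many settings and accompanies vessel remodelling, and Angpt4 is the third family member. Tie1 is a related receptor that modulates Tie2 without a high-affinity angiopoietin ligand of its own, and Ptprb encodes VE-PTP, the endothelial phosphatase that removes phosphate from Tie2. Apelin, the peptide encoded by Apln, acts on the G protein-coupled receptor Aplnr and guides the growth of vessels. In the alveolar capillaries of mice Apln marks the large gas-exchange cells called aerocytes and Aplnr the general capillary cells.

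Summed over genes, expected counts came to 42189536 for pup 1 and 37026165 for pup 3. A floor of 3 counts, up to which a gene at 0 could lie, is 0.0711 CPM (counts scaled to library size) in pup 1 and 0.0810 CPM in pup 3. For a check of the label of lung, 5 of 5 alveolar type 2 markers were detected (at least TPM 1 in both pups), with Sftpc, the surfactant protein C gene, at 77317 and 68981 TPM. All 11 general endothelial markers and all 8 pericyte markers were detected as well. In bulk tissue, fewer cells of a type and less RNA per cell cannot be told apart.

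The 3 receptor genes lay above every ligand gene in both pups. Tie1 (chr4:118471191-118490061, minus strand) had the highest level of the 8 genes, at 95.4 TPM in pup 1 and 105 TPM in pup 3. Aplnr (chr2:85136225-85139923, plus strand) stood at 73.7 and 79.6 TPM. Tek (chr4:94739289-94874976, plus strand) stood at 63.1 and 67.0 TPM. Each of the 3 was slightly higher in pup 3, and their values did not overlap one another. Their means were 100.2 ± 6.77 (SD, n = 2) for Tie1, 76.6 ± 4.18 for Aplnr and 65.1 ± 2.75 TPM for Tek. Among the 12942 protein-coding genes detected, 89.4% had a lower mean level than Tie1, 85.7% a lower one than Aplnr and 83.0% a lower one than Tek.

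Ptprb (chr10:116275523-116389535, plus strand) lay between the receptors and the ligands, at 19.8 and 22.9 TPM in pups 1 and 3. Its mean of 21.3 ± 2.16 TPM (n = 2) exceeded that of 58.6% of the detected protein-coding genes. It had the widest relative spread of the 7 detected members, with a coefficient of variation of 10.1%. The other receptor phosphatases of the same R3 class were low. Ptprj stood at 3.72 and 3.70 TPM, and Ptpro, Ptprq and Ptprh were under TPM 1 in both pups.

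Angpt1 was the leading angiopoietin transcript and Angpt4 was close to the detection limit. Angpt1 (chr15:42424723-42676977, minus strand) stood at 13.4 and 13.7 TPM, on 1796 and 1568 counts. Angpt2 (chr8:18690263-18741562, minus strand) stood at 4.88 and 4.84 TPM, on 478 and 460 counts. Angpt4 (chr2:151911210-151945337, plus strand) had only 8 and 6 counts, or 0.11 and 0.10 TPM, which is above the floor of 3 counts and under TPM 1 in both pups. Of the summed TPM of the 3 genes Angpt1 held 73.2 ± 0.498%, Angpt2 26.2 ± 0.453% and Angpt4 0.567 ± 0.0447% (n = 2). The small spread of these shares rests in part on a short transcript model of Angpt2, at 0.72 TPM in pup 1 and 0 in pup 3.

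Apln (chrX:48025146-48034853, minus strand) was at 11.2 and 11.4 TPM, on 1100 and 958 counts. Its mean of 11.3 ± 0.184 TPM lay just under that of Angpt1 (13.6 ± 0.247 TPM), and Angpt1 exceeded it 1.20-fold in each pup. Apela, which encodes the other known ligand of Aplnr, had 14 and 16 counts, or 0.51 and 0.69 TPM.

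**Figure D1:**
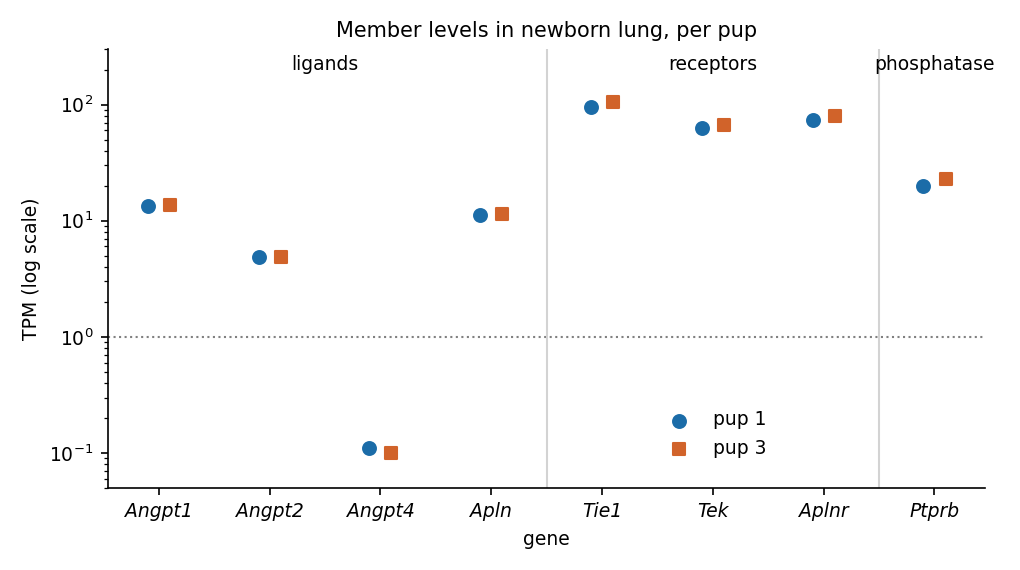
Level of each of the 8 genes in TPM (vertical axis, log scale) in pup 1 (circles) and pup 3 (squares), with ligands, receptors and the phosphatase set apart and a dotted line at TPM 1. The receptors sit between 63.1 and 105 TPM, the detected ligands between 4.84 and 13.7 TPM, and Angpt4 at 0.10 and 0.11 TPM.

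The order of mean TPM was Tie1, Aplnr, Tek, Ptprb, Angpt1, Apln, Angpt2 and Angpt4. In each of the 7 pairs of neighbours in that order the values of the pups did not overlap. With 2 pups an exact sign-flip test cannot go below p = 0.5, and the steps were not tested. The step from Aplnr to Tek was the smallest by ratio, at 1.17-fold in pup 1 and 1.19-fold in pup 3, and it turned around when counts were not divided by length: Tek had 213 and 220 CPM and Aplnr 191 and 203 CPM.

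Receptor RNA exceeded ligand RNA in both systems. Tek and Tie1 together had 159 and 172 TPM, against 18.4 and 18.7 TPM for the 3 angiopoietins. That is a log2 ratio of summed TPM of 3.16 ± 0.07 (n = 2), or 8.91-fold. Tie1, which has no high-affinity angiopoietin ligand of its own, made up 95.4 and 105 TPM of that receptor sum. Aplnr exceeded Apln 6.59-fold in pup 1 (95% counting interval 6.19 to 7.03) and 6.96-fold in pup 3 (6.50 to 7.45). Over all genes of these roles, the mean log2(TPM + 1) of the 3 receptors lay 3.78 ± 0.07 above that of the 4 ligands. The undetected Angpt4 widened that gap, which was 2.98 without it. RNA levels do not give the amounts of secreted ligand or of receptor protein.

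Single ligand and receptor pairs showed the same order in each pup. Tek exceeded Angpt1, the gene of its activating ligand, 4.71-fold in pup 1 (95% counting interval 4.48 to 4.96) and 4.88-fold in pup 3 (4.62 to 5.15). Angpt1 exceeded Angpt2 2.74-fold in pup 1 (2.48 to 3.04) and 2.84-fold in pup 3 (2.56 to 3.16). The likeness of these 2 values rests in part on Angpt2-202, a short transcript model given 12.8 counts in pup 1 and 0 in pup 3. Angpt2-201, the other model, stood alone at 4.17 and 4.84 TPM. In counts Angpt1 had 3.76 and 3.41 times those of Angpt2. Tek had 0.662 times the TPM of Tie1 in pup 1 (0.644 to 0.680) and 0.638 times in pup 3 (0.620 to 0.657). In these 3 pairs, as in Aplnr over Apln, the counting intervals of the pups overlapped.

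The ratio of phosphatase to receptor depended most on length. Ptprb had 0.313 times the TPM of Tek in pup 1 (95% counting interval 0.304 to 0.323) and 0.341 times in pup 3 (0.330 to 0.352), and these intervals did not overlap. In counts Ptprb had 0.840 and 0.910 times those of Tek. The effective length, the number of positions at which a fragment can start, was 11813 bases for Ptprb and 4410 and 4426 bases for Tek.

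**Figure D2:**
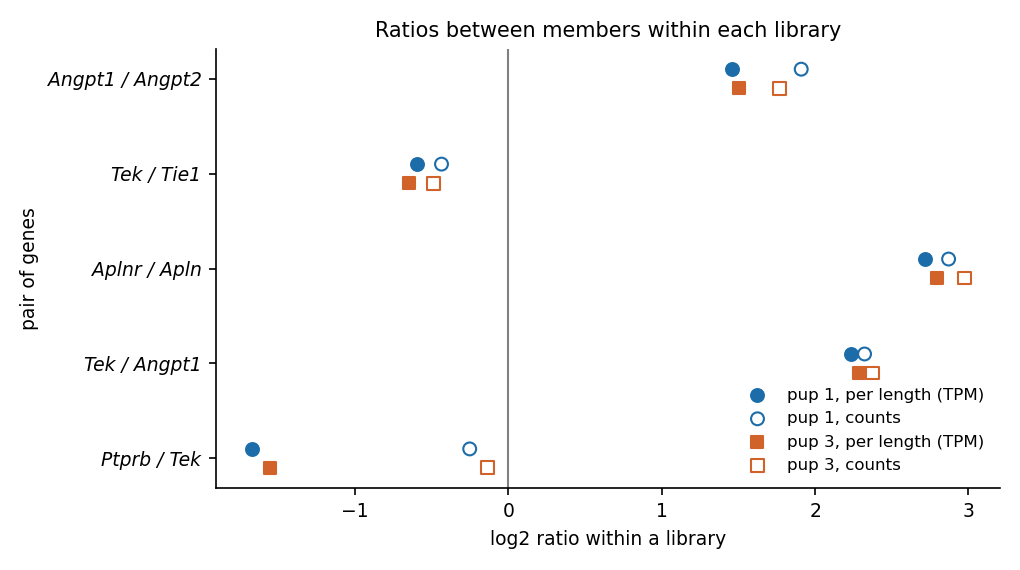
Log2 ratio of the first to the second gene of 5 pairs (horizontal axis) within the library of pup 1 (circles) and pup 3 (squares), from TPM (filled) and from counts without length correction (open). Every pair keeps its sign on both scales, and Ptprb over Tek moves most, from a mean of -1.61 by TPM to -0.19 by counts.

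Between the pups, none of the members differed by the rule used for all genes. That rule asked for at least 50 counts over both libraries, a ratio of at least 2-fold and a 95% counting interval that leaves out 1, and 1.40% of the 15790 genes tested met it (221 genes). Angpt4 had too few counts to be tested. Log2 ratios of the 7 others, pup 1 over pup 3 after TMM scaling, ran from -0.12 for Ptprb to 0.05 for Apln, with a median of -0.05 against 0.01 over all genes tested. This compares 1 library with 1 library, and it carries no p-value.

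Small ratios fell on both sides of 0. Ptprb, with 7545 and 7410 counts, had 0.919 times the scaled count of pup 3 in pup 1 (95% counting interval 0.890 to 0.949). Tie1, with 12152 and 11418 counts, had 0.960 times (0.936 to 0.985) and Aplnr, with 8045 and 7516 counts, 0.966 times (0.936 to 0.997). These 3 intervals leave out 1, which is so for 46.2% of all genes tested. Tek, with 8984 and 8146 counts, was at 0.995 times (0.966 to 1.03), and the intervals of Angpt1, Angpt2 and Apln also held 1. Ratios were below 1 for 5 of the 7 members, Angpt2 included, against 49.0% of all genes. With DESeq2 size factors they were below 1 for 4 of the 7, against 47.7% of all genes. Scaling by spike-in counts raised every log2 ratio by 0.14 and left 0 of the 7 below 1, against 25.0% of all genes. It rests on 317 and 316 spike-in counts, and the 95% counting interval of that shift, from -0.09 to 0.37, holds 0. Among the 3501 genes with at least 5000 counts the central 68% of log2 ratios spanned ± 0.15, more than any member's ratio from 0 under TMM. Markers of pericytes had a median log2 ratio of 0.20 and general endothelial markers one of 0.05, with 0 of 8 and 0 of 11 past the rule. Their part in the members' ratios was not tested.

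**Figure D3:**
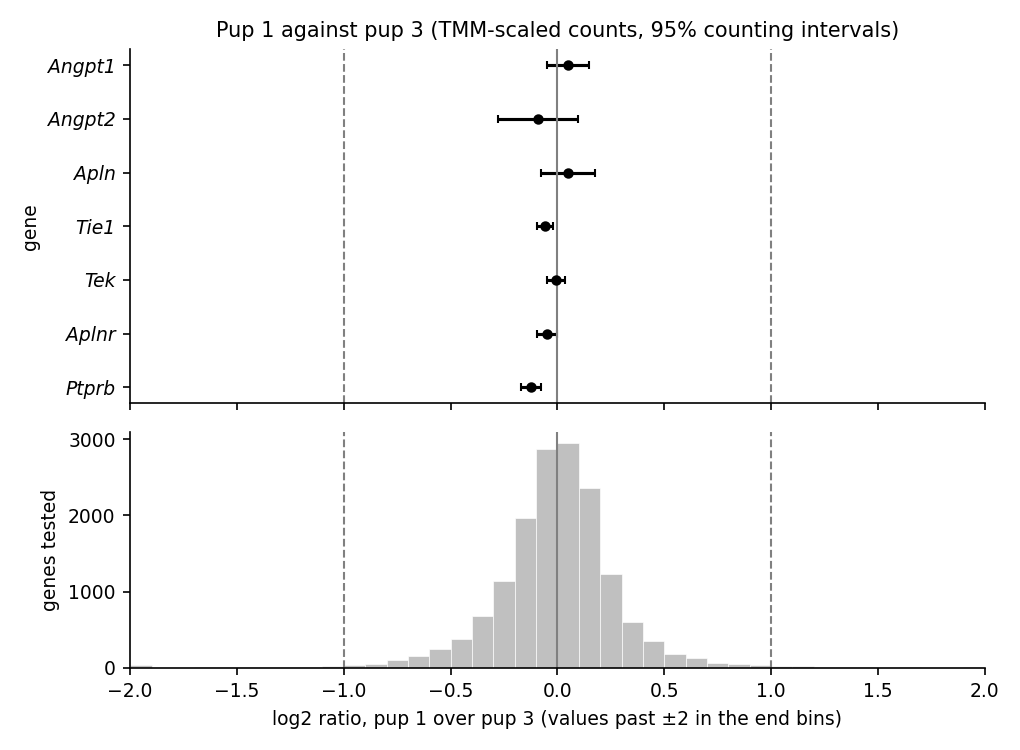
Top, log2 ratio of TMM-scaled counts of pup 1 over pup 3 for the 7 members tested, with 95% counting intervals. Bottom, the same ratio for all 15790 genes tested in bins of 0.1, with dashed lines at 2-fold. The members lie between -0.12 and 0.05 under TMM, near the centre of the distribution, and spike-in scaling shifts all of them by the same 0.14, which puts the 7 above 0.

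Transcript shares were available for 4 members, since Angpt1, Angpt4, Ptprb and Apln have 1 transcript model each in the tables. The same model led in both pups in 4 of these 4 (Tek, Tie1, Aplnr and Angpt2), as it did in 92.2% of the 9858 detected genes with several models. Shares are the deposited isoform percent, the part of a gene's TPM given to a transcript, and they rest on a model that divides shared reads.

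Tek had the most even division. Tek-203 held 73.9% of Tek in pup 1 and 69.2% in pup 3, Tek-202 12.3% and 16.5%, and Tek-201 12.0% and 13.1%. The 3 are annotated as protein-coding and differ within the coding sequence. Tek-202 lacks exon 4 of Tek-203 (chr4:94799127-94799279, 153 bases, wholly coding), and its coding sequence is shorter by exactly those 51 codons (3216 against 3369 bases). Tek-201 ends exon 14 earlier by 3 bases, so that its coding sequence lacks 1 codon (3366 bases). Whole models are 4654 bases long for Tek-203, 4549 for Tek-202 and 4176 for Tek-201, so they also differ outside these stretches. The sequences below show what separates the coding sequences only, from the GENCODE M21 transcripts on mm10 and the plus strand. Capitals mark the bases absent from the shorter form, and 15 bases on either side are in lower case.
Tek-203, exon 4: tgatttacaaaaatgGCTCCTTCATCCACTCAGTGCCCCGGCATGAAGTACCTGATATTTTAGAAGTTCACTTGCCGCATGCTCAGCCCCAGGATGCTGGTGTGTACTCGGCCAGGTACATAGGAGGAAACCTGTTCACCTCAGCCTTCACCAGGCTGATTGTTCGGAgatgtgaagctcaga
Tek-202, exon 4 absent: tgatttacaaaaatggatgtgaagctcaga
Tek-203, end of exon 14 (chr4:94851723-94851877): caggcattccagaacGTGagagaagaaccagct
Tek-201, end of exon 14 (chr4:94851723-94851874): caggcattccagaacagagaagaaccagct

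Tek-202, the form without exon 4, was assigned reads in both pups, with a wide error, and whether the pups differ in it was not tested. Reads across the junction that skips exon 4 were not counted, and Tek-202 also differs from Tek-203 in length outside that exon. Its counts and shares are therefore those of the whole model, not a measured rate of skipping. Tek-202 was given 1119 counts in pup 1, with a posterior SD of 199 counts, and 1353 counts in pup 3, with the same posterior SD of 199, neither scaled for depth. The posterior SD is the deposited uncertainty of dividing reads among models. Of the 3 coding forms together Tek-202 held 12.6% and 16.7%. Tek-201, which differs by the 3 bases alone apart from its ends, was given 999 and 985 counts with posterior SDs of 105 and 98.8. In TPM Tek-203 was nearly equal in the pups, at 46.7 and 46.4, and Tek-202 stood at 7.79 and 11.1.

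Tie1, the other receptor kinase, was close to a single form. Tie1-201 held 94.8% and 95.6% of Tie1 in pups 1 and 3. Tie1-202, a model with no coding sequence, held 3.81% and 2.72%, and Tie1-203, with a shorter coding sequence of 1941 against 3402 bases, 1.36% and 1.65%.

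Short models weighed on the levels of Aplnr and Angpt2. Aplnr-201, a single exon of 3699 bases, held 93.6% and 95.3% of Aplnr in TPM and 99.6% and 99.7% in counts. The rest went to Aplnr-202, a spliced model of 313 bases, on 32.3 and 22.1 counts. Angpt2-202, a model of 652 bases with no coding sequence, was given 12.8 counts in pup 1 and 0 in pup 3, with posterior SDs of 6.90 and 5.48 counts. Those 12.8 counts were 2.68% of the counts of Angpt2 and 14.7% of its TPM in pup 1. Angpt2-201 alone, the model with the full coding sequence, stood at 4.17 and 4.84 TPM, so the near-equal gene levels of 4.88 and 4.84 TPM rest in part on the short model. By isoform percent Angpt2-201 held 85.3% in pup 1 and 100% in pup 3.

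**Figure D4:**
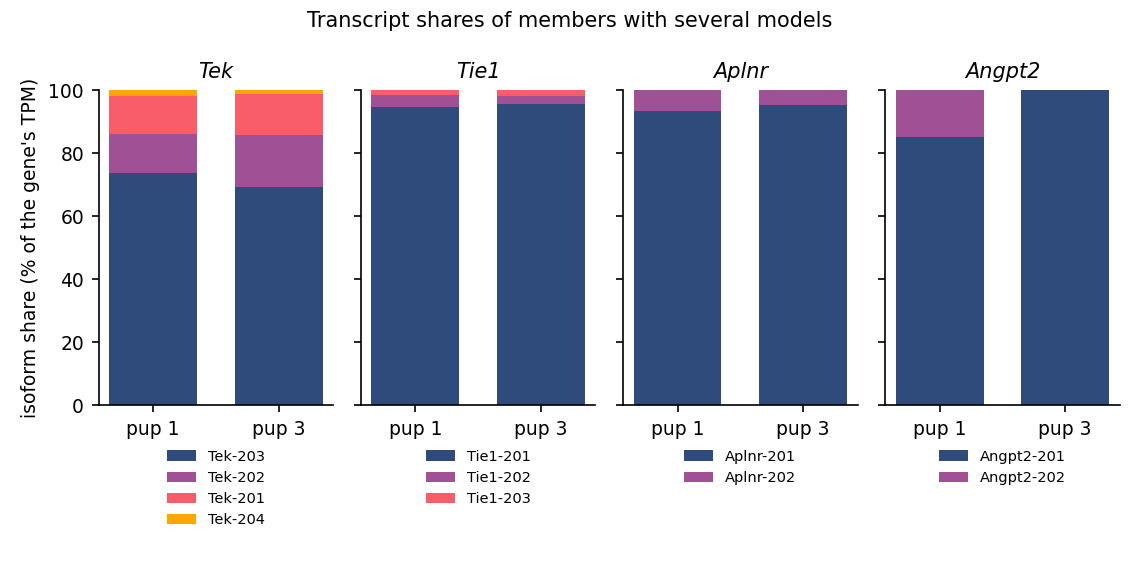
Share of each transcript model in its gene's TPM (vertical axis, percent) for Tek, Tie1, Aplnr and Angpt2 in pups 1 and 3. Tek-203 holds 69.2% to 73.9% of Tek, while the leading models of Tie1, Aplnr and Angpt2 hold at least 85.3%.

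Neighbouring annotation bears on Angpt2 and Angpt1, since whether counting used strand is not given in the sources used here. Angpt2 lies on the opposite strand within the span of Mcph1 (chr8:18595131-18803189), a gene of the DNA damage response, which had 239 and 292 counts. The annotated exons of Angpt2 and Mcph1 share 0 bases. The antisense gene Gm17473 (chr15:42676241-42704616) shares 737 exonic bases with Angpt1 and had 3.44 and 4.62 counts, against 1796 and 1568 for Angpt1. Within introns of Ptprb lie the snoRNA gene Gm26495, at 0 counts in both pups, and the gene model Gm47625, not analysed here. Aplnr, Angpt4, Tek, Tie1 and Apln overlap no other annotated gene.

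Genes that act with the Tie receptors were all detected. The list of adaptors, effectors and partners had 13 of 13 members at TPM 1 in both pups, and 0 of 13 passed the rule between the pups. Of all 21474 protein-coding genes measured, 12942 were detected at that threshold. Cdh5, which encodes VE-cadherin, a junction protein that VE-PTP also binds, led it at 85.6 and 87.7 TPM, followed by Akt1, a kinase downstream of Tie2 (69.3 and 80.7 TPM), and the adaptor Grb2 (53.8 and 65.4 TPM). The 5 integrin genes described as angiopoietin-binding were detected too, led by Itgb1 at 303 and 327 TPM. Their products bind many matrix proteins besides.

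The apelin side had 13 of 14 measured genes detected, Apela being the exception, and 0 of the 13 tested passed the rule. Klkb1 was listed too and had no match in the tables. Gnai2, a subunit of the inhibitory G proteins through which Aplnr signals, led the list at 364 and 368 TPM, with Gnai3 at 76.9 and 85.2 and Gna13 at 61.1 and 50.8 TPM. These subunits serve many receptors.

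Angiopoietin-like genes, whose products are related to angiopoietins and do not bind Tie2, had 4 of the 6 members analysed here detected. Angptl4, an inhibitor of lipoprotein lipase, stood at 109 and 121 TPM, above every angiopoietin, and Angptl2 at 29.7 and 25.3 TPM. Angptl8 followed at 6.52 and 5.52 TPM. Angptl1 and Angptl7 were under TPM 1 in both pups, and 0 of the 6 passed the rule.

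Set beside general endothelial markers, the 3 receptors lay within their range and below their median. The ligands lay near or below the low end of that range. The 11 markers ran from 12.2 TPM for Erg to 711 TPM for Ramp2, with a median of 109 TPM. Tie1 exceeded 5 of the 11, Aplnr and Tek 3 each, Ptprb 2, Angpt1 1, and Apln, Angpt2 and Angpt4 none. Among the 8 pericyte markers, with a median of 27.0 TPM, Tie1 lay above 6, Aplnr and Tek above 5 each and Ptprb above 4. Angpt1 and Apln lay above 3 each, Angpt2 above 2 and Angpt4 above none. The levels do not assign any of these genes to a cell type, and platelets and blood progenitors, which can also hold Angpt1 or Tek RNA, were present by their markers: 5 of 5 and 3 of 5 were detected, with Pf4 at 143 and 128 TPM and Kit at 22.6 and 29.0 TPM. Markers of smooth muscle (6 of 6), cardiac muscle (5 of 5) and lymphatic endothelium (5 of 5) were detected too. The part of any of these cell types in the levels was not tested.

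**Figure D5:**
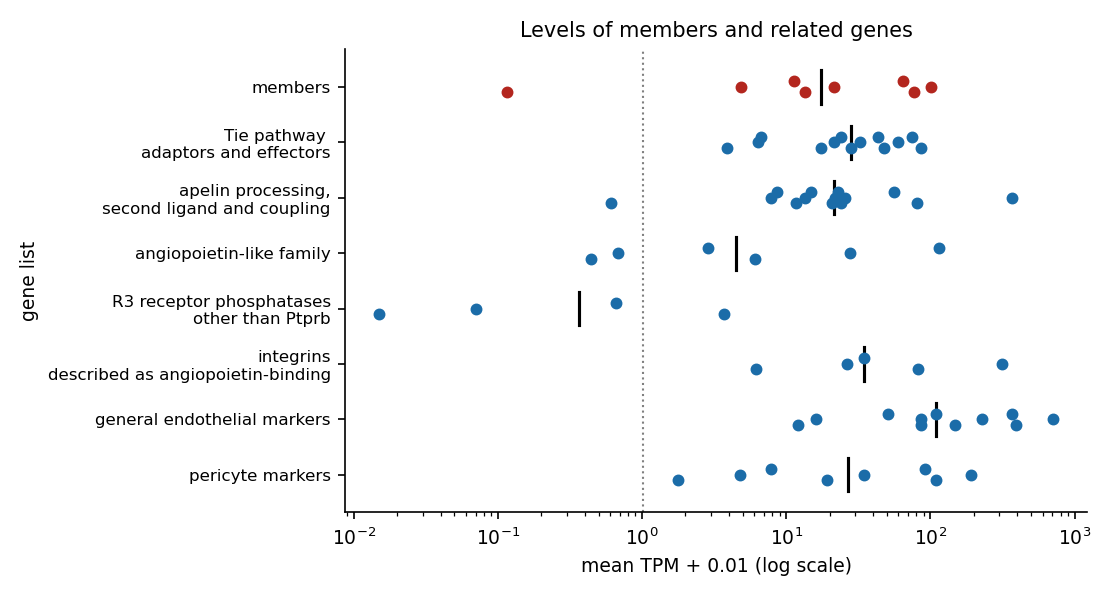
Mean TPM of the 2 pups plus 0.01 (horizontal axis, log scale) for each gene of 8 lists, with the members in red, a black bar at each list's median and a dotted line at TPM 1. Members run from 0.105 TPM (Angpt4) to 100.2 TPM (Tie1), and the R3 phosphatases other than Ptprb reach 3.71 TPM.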

How the data were processed

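Per the labels, RNA over 200 nt came from an Ambion mirVana extraction and each library took 10 ng; a SMARTer low-input manual is also named. The deposited tables give expected counts (estimated, not always whole), TPM, FPKM and isoform percent per gene or transcript, per the file headers, on mm10 with annotation M4. Aligner and quantifier: not given in the sources used here. The members and lists were chosen with earlier results of these data known.

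Gene identifiers without version were matched to GENCODE M21 (42462 of 43346). Of 15 transcript models of the members, 13 had the same length in M21, and the other 2 (Angpt1-201, Ptprb-201) differ by at most 4 bases. TMM factors (edgeR 4.0.16 under R 4.3.3) were taken from rounded expected counts and put pup 1 at 1.11 times pup 3. Log2 ratios carry a prior count of 0.5. Intervals are exact conditional binomial at 95% and, like the floor, cover counting error only. With 1 library per pup no p-value was computed. From each list the 3 highest genes and those under TPM 1 could be named. Alternatives covered normalization (DESeq2 1.42.0 size factors, totals, spike-ins), pseudocounts, filters, posterior estimates and leaving out each pup. One gene of a related list is not reported here.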

Additional observations from a re-analysis of the deposited data

How the results depend on the processing

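No comparison of conditions was possible because the series has a single group, and pairs of genes were compared within each library. Receptors lay above ligands under every alternative run. Every receptor exceeded every ligand in both pups, so a changed pseudocount, a sum, a subset or a single pup could not turn that sign. Those alternatives bear only on the size of the gap. The log2 difference of 3.78 became 4.48 with a pseudocount of 0.1, 3.02 by summed TPM and 2.98 without Angpt4. It was 4.17 for the Tie system, 2.66 for the apelin system, and 3.73 and 3.83 in single pups. The 4.17 averages in the undetected Angpt4. By summed TPM, without a pseudocount, the gap was 3.16 for the Tie system and 2.76 for the apelin system. Without length correction the mean log2 ratios became 1.84 for Angpt1 over Angpt2 (1.48 by TPM), 2.92 for Aplnr over Apln (2.76), -0.19 for Ptprb over Tek (-1.61), 2.35 for Tek over Angpt1 (2.26) and -0.46 for Tek over Tie1 (-0.62). A pseudocount of 1 gave 1.31, 2.66 and 2.18 for Angpt1 over Angpt2, Aplnr over Apln and Tek over Angpt1, and posterior mean TPM gave 1.39 for the first. In single pups the 5 ratios ran from 1.46 to 1.51, 2.72 to 2.80, -1.67 to -1.55, 2.24 to 2.29 and -0.65 to -0.60, in the same order. No pair changed sign. All 8 positions in the order held under posterior mean TPM, and under counts Tek and Aplnr changed places. The order was also the same under FPKM and in each single pup. Those are no further checks, since FPKM keeps the order within a library and the pups' values did not overlap between neighbours. Posterior mean TPM moved member levels by -1.90% (Ptprb) to 9.52% (Angpt4). The leading coding transcript alone, an alternative chosen after seeing the data, moved Tek by -28.5% and kept the order. Genes that differ between the pups numbered 221, against 701 with no minimum count and 85 by deposited TPM + 1. No tested member reached 2-fold under any scaling. Their log2 ratios ran from 0.02 to 0.19 with spike-in scaling, all above 0, and from -0.20 to 0.01 by TPM + 1. Depth limits Angpt4, whose ratio between the pups has a 95% counting interval of 0.366 to 4.21.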
